A study of Homo sapiens with 6 samples.

Results

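Tight junctions were followed through 9 genes: the claudins CLDN1, CLDN3, CLDN4, CLDN7 and CLDN12, occludin (OCLN), the zonula occludens scaffolds TJP1 and TJP3, and the junctional adhesion molecule F11R. They were chosen by gene symbol, as 9 of 60835 distinct symbols in the deposited count table, and each had 1 line there. All 9 passed the filter on low counts that left 15911 genes for testing.

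The RNA was from the human pancreatic carcinoma line PANC-1, with SMAD4 knocked out in both groups. The knockout cells had been transfected with SMAD4 carrying the R272K change, a lysine in place of an arginine, or with wild-type (WT) SMAD4, and represent day 3. There were 3 R272K and 3 WT libraries, and knockout cells without added SMAD4 were not analysed here. The labels do not say whether the knockout was 1 clone or whether replicates were separate cultures, so p-values measure the spread between these libraries, which may be technical. The series title concerns methylation of SMAD4 on arginine by PRMT1, and the question here is whether junction transcripts differ with the substituted residue.

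Tight junctions seal the space between neighbouring epithelial cells. Claudins are membrane proteins with 4 transmembrane segments that form the strands and set which ions pass, occludin and the junctional adhesion molecules sit beside them, and the zonula occludens proteins tie them to actin inside the cell. In carcinoma cells that turn mesenchymal, genes of this junction are known to be repressed by factors such as SNAI1, SNAI2, ZEB1 and ZEB2, which bind the E-box CACCTG. SNAI1 is known to act on junction genes together with SMAD proteins, including SMAD4.

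Promoter sequence was examined because the known repressors of this gene group bind the E-box. RefSeq windows (GRCh38.p14) of 250 bases before to 50 bases after an annotated start were found for 8 of the 9 genes, F11R being without one, with 14 windows in all. The E-box CACCTG, searched on both strands (CAGGTG is its other strand), was in 6 of the 14 windows, from 5 genes, and in 20.6% of all 35116 RefSeq windows. CAGAC, the short element that SMAD proteins bind, searched likewise (GTCTG), was in 7 of the 14, from 6 genes, and in 45.3% of all windows. None of the matches in the 14 windows overlapped another.

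Of these, 3 windows are shown: those of CLDN1 and CLDN4, the 2 most abundant members, and the window of CLDN7 with a run of E-boxes, the last chosen after the matches were seen. The CLDN1 window (chr3:190322397-190322696, minus strand) held no CACCTG and 1 CAGAC, 44 bases into the transcript. The CLDN4 window (chr7:73830746-73831045, plus strand) held no E-box and 2 matches to the SMAD element, both on the opposite strand, at -233 and 36 from the start. The CLDN7 window (chr17:7262429-7262728, minus strand) held 5 E-boxes, at -174, -135, -20, -9 and 6, a number that 0.094% of all windows reach or exceed. Each is written 5′ to 3′ along the gene, with matches in capitals.
CLDN1: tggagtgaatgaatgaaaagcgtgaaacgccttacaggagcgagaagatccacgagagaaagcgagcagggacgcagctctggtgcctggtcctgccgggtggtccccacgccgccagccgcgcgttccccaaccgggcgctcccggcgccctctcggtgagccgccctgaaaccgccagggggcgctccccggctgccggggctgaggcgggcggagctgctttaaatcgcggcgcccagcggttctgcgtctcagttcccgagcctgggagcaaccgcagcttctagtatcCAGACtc
CLDN4: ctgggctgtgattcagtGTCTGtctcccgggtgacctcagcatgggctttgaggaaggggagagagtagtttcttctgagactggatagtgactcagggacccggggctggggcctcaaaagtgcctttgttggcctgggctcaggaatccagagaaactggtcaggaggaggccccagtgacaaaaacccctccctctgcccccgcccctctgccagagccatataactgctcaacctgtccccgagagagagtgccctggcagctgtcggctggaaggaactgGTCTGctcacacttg
CLDN7: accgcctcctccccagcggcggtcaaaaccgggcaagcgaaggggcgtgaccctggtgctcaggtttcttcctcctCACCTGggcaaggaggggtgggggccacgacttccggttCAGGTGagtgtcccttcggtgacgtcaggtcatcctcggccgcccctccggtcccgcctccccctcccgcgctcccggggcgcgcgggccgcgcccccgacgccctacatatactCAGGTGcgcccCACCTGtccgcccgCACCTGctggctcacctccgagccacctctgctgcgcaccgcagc

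The libraries held 14776148 to 17706201 counts. SMAD4 transcript, for which the labels predict no direction, stood at 40.6, 45.7 and 43.6 CPM (counts relative to TMM-scaled library size) in the R272K libraries. In the WT libraries it stood at 83.4, 93.6 and 89.0 CPM, a log2 fold change, R272K over WT, of -1.03 (SE 0.075, edgeR adjusted p = 6.28e-06). The amount of SMAD4 transcript and the substitution therefore cannot be told apart in any difference below. WT replicate 1 stood apart on component 1 of a principal component analysis, which held 32.2% of the variance. Its score was 31.3, against 9.56 and 0.13 for WT replicates 2 and 3. The R272K libraries scored -15.6, -11.3 and -14.1, so the groups also stood apart on component 1. For named genes whose log2 fold change moved by over 1.5 times without WT replicate 1, both values are given. The epithelial markers KRT8, KRT18, KRT19, EPCAM and CDH1 summed to 4712 to 5183 TPM in the R272K libraries and 3931 to 4437 TPM in the WT libraries, TPM being the length-scaled level the authors deposited. Most of this was keratin: EPCAM averaged 9.73 TPM with R272K and 7.33 TPM with WT SMAD4, and CDH1 averaged 4.23 TPM with R272K and 1.69 TPM with WT SMAD4. The keratins did not move together. KRT8 averaged 3077 TPM with R272K and 2420 TPM with WT SMAD4, and KRT18 averaged 1525 TPM with R272K and 1390 TPM with WT SMAD4. KRT19 went the other way, at 299 TPM with R272K and 315 TPM with WT SMAD4. CDH1 was called (log2 fold change 1.33, edgeR adjusted p = 0.00174) and the other 4 were not. The part of this marker difference in the results below was not tested, and fewer cells of a type cannot be told from less RNA per cell in bulk libraries. The summed level of 4 markers each for endothelial cells, leukocytes and fibroblasts was at most 1.49 TPM in any library, and none of those 12 genes passed the filter.

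Per unit of length CLDN1 was the most abundant of the 9, at 313 ± 3.13 TPM with R272K and 265 ± 26.7 TPM with WT SMAD4 (SD, n = 3 each). CLDN4 followed at 119.7 ± 7.79 TPM with R272K and 113.4 ± 9.09 TPM with WT SMAD4. TJP1 came next at 71.5 ± 2.16 TPM with R272K and 66.6 ± 11.1 TPM with WT SMAD4. CLDN12 and CLDN7 followed and did not differ beyond their spread, with ranges of 38.8 to 44.5 TPM and 37.9 to 45.7 TPM over the 6 libraries. OCLN was below CLDN7 in 5 of 6 libraries, its range of 29.3 to 38.8 TPM overlapping that of CLDN7. F11R (17.1 to 21.5 TPM), CLDN3 (3.56 to 5.37 TPM) and TJP3 (1.57 to 2.84 TPM) closed the order, each below the one before it in all 6 libraries.

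The family was dominated by a few members. Of 24 claudin genes, 3 had no count in any library (CLDN8, CLDN17 and CLDN22), and 12 passed the filter. CLDN1, CLDN4, CLDN12 and CLDN7 together made up 93.9% ± 0.214 of the summed claudin TPM with R272K and 92.4% ± 0.452 with WT SMAD4 (SD, n = 3 each). CLDN1 by itself was 57.6, 55.6 and 56.4% of that sum in the R272K libraries, against 50.2, 54.0 and 55.6% in the WT libraries, with the highest WT library just below the lowest R272K library. Among the 3 zonula occludens genes TJP1 held 93.5% ± 0.555 of the TPM with R272K and 94.7% ± 0.568 with WT SMAD4. TJP3 held 2.92% ± 0.568 with R272K and 2.55% ± 0.465 with WT SMAD4.

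**Figure D1:**
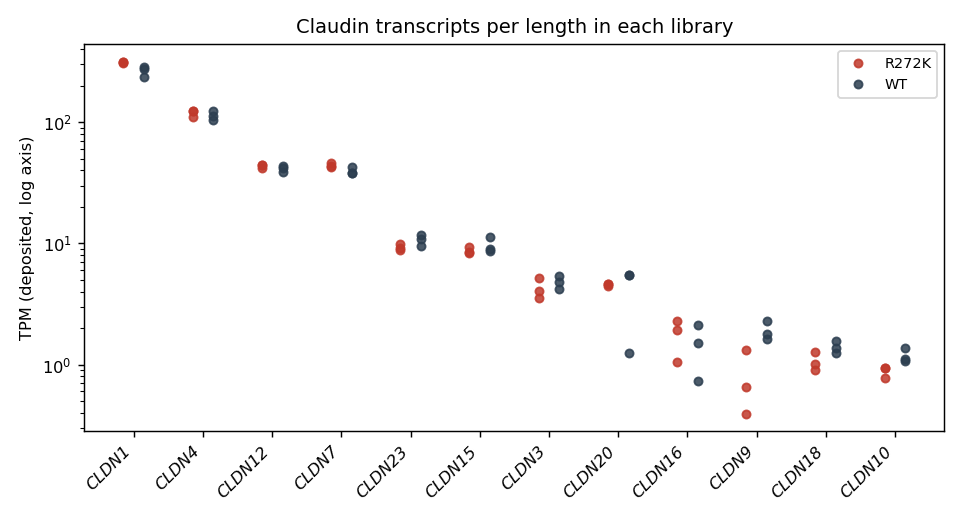
Deposited TPM (log axis) of the 12 claudin genes that passed the filter, one point per library, R272K libraries to the left of WT libraries for each gene. CLDN1 lies between 235 and 317 TPM and CLDN4 between 105.0 and 124.9 TPM, whereas CLDN3 does not exceed 5.37 TPM.

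Between the groups, no member was called at an adjusted p below 0.05 by edgeR's quasi-likelihood test, where 1.21% of all tested genes were (0.685% higher and 0.528% lower). DESeq2 and limma-voom also called 0 of 9, against 1.75% and 1.23% of all genes. CLDN1 and F11R came nearest: both were higher in every R272K library than in any WT library, 1.17-fold on average, and were the 2 members with an unadjusted p under 0.05, as were 14.3% of all genes. R272K libraries stood wholly above WT libraries for 2 of 9 members and wholly below for 0, against 10.9% and 10.4% of all genes, 21.4% in either direction. The median log2 fold change of the 9 was 0.11, with 8 above 0, and that of all tested genes was -0.0011. In the other fits that called 0 of the 9, the share of all genes called was 1.24% with RLE and with upper quartile scaling, 1.34% on library size, 1.29% with no filter and 1.31% with a filter of 1 CPM in 3 libraries. A replicate block gave 1.65%. On log2(TPM + 1) and log2(TPM + 0.1) it was 0.654% and 0.635%. Without R272K replicate 1, 2 or 3 it was 0.362%, 0.367% and 0.337%, and without WT replicate 2 or 3 it was 0.512% and 1.69%. The fits that called 1 or 2 of the 9 came to 3.89%, 5.36% and 5.72%, and are described with CLDN1 and F11R.

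CLDN1 (ENSG00000163347, chromosome 3, 190305707 to 190322446, minus strand, GRCh38) encodes a claudin that makes the strands less permeable and is needed for the skin's water barrier in mice. Its level was 343.0, 342.8 and 342.1 CPM in the R272K libraries, against 276.7, 299.9 and 304.1 CPM in the WT libraries. The R272K libraries nearly coincided and lay above each WT library, of which replicate 1 was the lowest. The spread among R272K libraries, a coefficient of variation of 0.132%, was smaller than the 1.39% that counting error by itself gives at that depth, so their closeness does not measure the precision of the level. The log2 fold change was 0.22 (SE 0.0604, 95% interval 0.093 to 0.35), a 1.17-fold higher level, with an unadjusted p of 0.00264 and an adjusted p of 0.108 from the edgeR model. Without WT replicate 1 the difference was smaller, 0.18, and CLDN1 was called (adjusted p = 0.00277), in a fit that called 875 genes, 5.36% of those tested. When dependence on gene length was taken out of every library, it was called at 0.23 (adjusted p = 0.014), among 619 genes, 3.89%. Over the alternatives its adjusted p ran from 0.00247 to 0.394.

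F11R (ENSG00000158769, chromosome 1, 160995211 to 161021343, minus strand) encodes JAM-A, an immunoglobulin-like adhesion protein that binds the polarity protein PAR3 and the scaffold afadin. It stood at 31.1, 32.9 and 28.9 CPM in the R272K libraries, against 28.2, 26.0 and 25.2 CPM in the WT libraries. The lowest R272K library was just above the highest WT library, which was replicate 1. The log2 fold change was 0.22 (SE 0.0852, 95% interval 0.040 to 0.41, adjusted p = 0.25 by edgeR's test). Leaving out WT replicate 1 gave 0.27 (adjusted p = 0.048), a call that no other omitted library gave (adjusted p = 0.322 to 0.599). Taking out gene length and WT replicate 1 together called both CLDN1 and F11R (adjusted p = 0.00247 and 0.0474), with 5.72% of all genes. The annotated span of F11R shares 23387 bases with AL591806.3 on the same strand, and reads there may have been divided or dropped. AL591806.3 had 6 counts in the R272K libraries together and 7 in the WT libraries.

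**Figure D2:**
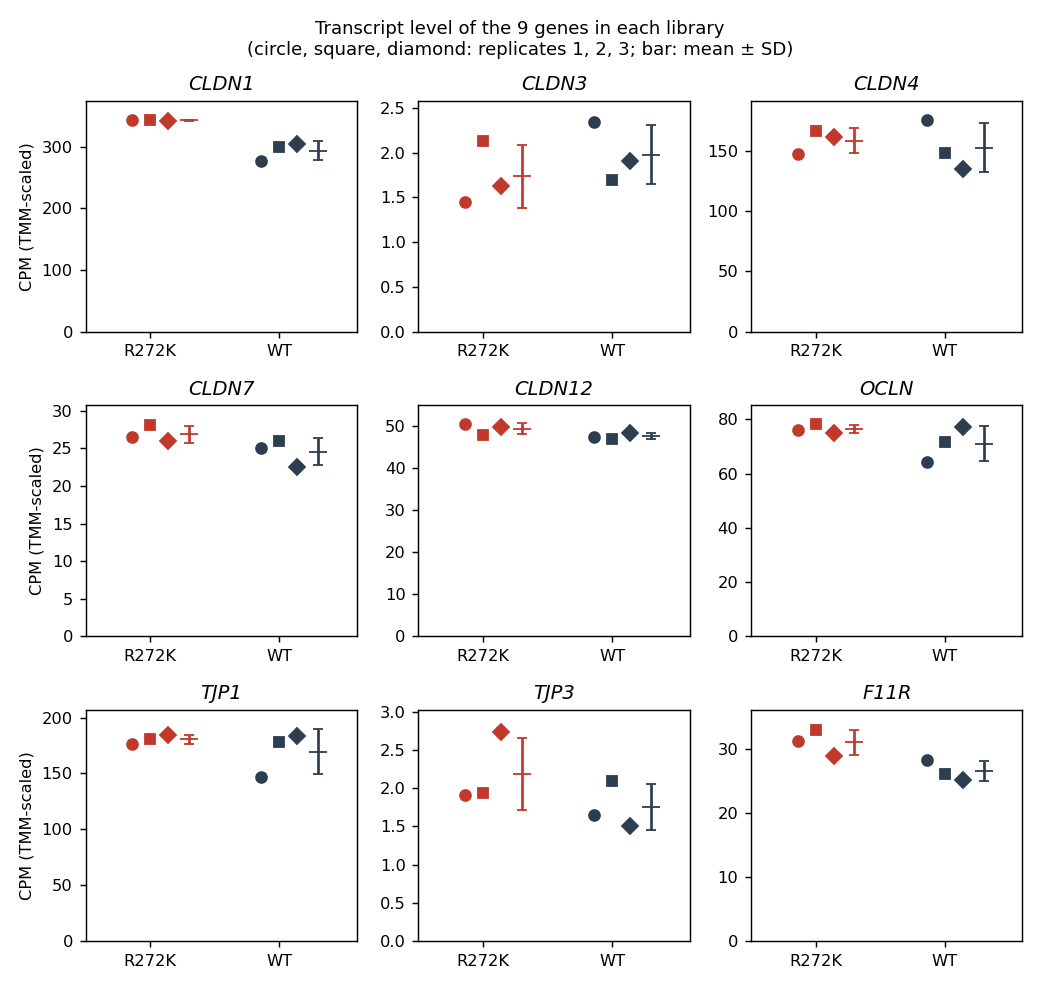
CPM of each of the 9 genes in each library, with R272K libraries to the left of WT libraries, symbols for replicates 1 to 3, and the mean ± SD beside them. For CLDN1 and F11R the R272K points lie above the WT points, and for the other 7 genes the groups overlap.

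CLDN4 (ENSG00000189143, chromosome 7, 73799542 to 73832690, plus strand), a claudin often abundant in pancreatic cancer and a receptor for an enterotoxin of Clostridium perfringens, changed direction with WT replicate 3 left out. Its level was 146.9, 166.6 and 161.2 CPM in the R272K libraries, against 174.9, 147.6 and 135.0 CPM in the WT libraries. WT replicate 1 was the highest of the 6 and WT replicate 3 the lowest. With all 6 libraries the log2 fold change was 0.052 (SE 0.0885, 95% interval -0.14 to 0.24, adjusted p = 0.831). Without WT replicate 1 it was 0.16 (95% interval 0.056 to 0.27, adjusted p = 0.0647), and without WT replicate 3 it was -0.031 (adjusted p = 0.884), so its direction was not settled. Without R272K replicate 1, R272K replicate 2 or WT replicate 2 it was 0.10, 0.011 and 0.026.

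CLDN3 (ENSG00000165215, chromosome 7, 73768997 to 73770270, minus strand) is the neighbour of CLDN4, with 29271 bases between the annotated genes, and is a receptor for the same enterotoxin. It had 79 counts in the R272K libraries together and 95 in the WT libraries. Its level was 1.44, 2.13 and 1.63 CPM in the R272K libraries, against 2.34, 1.69 and 1.90 CPM in the WT libraries, and the groups overlapped. The log2 fold change was -0.20 (SE 0.261, 95% interval -0.76 to 0.37, adjusted p = 0.781), the widest interval among the 5 claudins of the set. Single libraries moved it from -0.052 without WT replicate 1 to -0.37 without R272K replicate 2, with -0.082 without R272K replicate 1 and -0.30 without WT replicate 2. Coefficients of variation were 20.4% with R272K and 16.7% with WT SMAD4. They lay close to the counting error of 19.5% with R272K and 17.8% with WT SMAD4, so depth limited this estimate. The interval is not a limit of detection, and a change outside it could also go uncalled.

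CLDN7 (ENSG00000181885, chromosome 17, 7259903 to 7263983, minus strand) encodes a claudin that lies along the lateral membrane and binds EPCAM. It stood at 26.45, 28.15 and 25.9 CPM in the R272K libraries, against 25.1, 26.0 and 22.5 CPM in the WT libraries. A single pair overlapped, R272K replicate 3 and WT replicate 2. On the deposited TPM the same 2 libraries were 43.0 and 42.8, and the groups did not overlap. Its log2 fold change was 0.13 (SE 0.0868, 95% interval -0.059 to 0.32, adjusted p = 0.539), and 0.068 without WT replicate 3. CLDN7, TJP1 and TJP3 overlap the expressed genes ELP5, HMGN2P5 and APBA3 on the opposite strand by 38, 273 and 42 bases, and reads there cannot be assigned with certainty. On the same strand, CLDN7 shares 2187 bases with AC003688.1, which had 0 counts in both groups, and TJP1 shares 1346 bases with AC022613.3. Reads there are uncertain as well.

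CLDN12 (ENSG00000157224, chromosome 7, 90383721 to 90513402, plus strand), an atypical claudin whose tail lacks the motif for binding zonula occludens proteins, differed little among the libraries. It had 50.3, 47.8 and 49.7 CPM in the R272K libraries, against 47.2, 46.9 and 48.3 CPM in the WT libraries. Its log2 fold change was 0.054 (SE 0.0682, adjusted p = 0.77), and its 95% interval of -0.093 to 0.20 left out a change of more than 1.15-fold upward or below 0.937-fold. On the same strand, its annotated span shares 7733 bases with GTPBP10, 109958 with AC006153.1, 46979 with CDK14 and 43759 with PTTG1IP2. Reads there may have been divided or dropped. AC006153.1 and PTTG1IP2 had 0 counts in both groups.

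OCLN (ENSG00000197822, chromosome 5, 69492292 to 69558104, plus strand), the gene of the junction strand protein occludin, measured 76.2, 78.2 and 75.2 CPM in the R272K libraries, against 64.4, 71.7 and 77.2 CPM in the WT libraries. WT replicate 3 fell among the R272K values and WT replicate 1 was the lowest. R272K over WT, the log2 fold change was 0.11 (SE 0.0754, 95% interval -0.055 to 0.27, adjusted p = 0.556), with 0.04 without WT replicate 1 and 0.17 without WT replicate 3. OCLNP1, a partial copy elsewhere on chromosome 5, had 3 counts in each group, and reads shared with it are uncertain. The annotated span of OCLN also overlaps AC145146.2 on the opposite strand by 10175 bases.

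TJP1 (ENSG00000104067, chromosome 15, 29699367 to 29968915, minus strand), the gene of the scaffold ZO-1 that joins claudins and occludin to actin, behaved in the same way. It stood at 176.3, 181.2 and 184.2 CPM in the R272K libraries, against 146.6, 177.8 and 184.0 CPM in the WT libraries. WT replicate 1 was the lowest of the 6, and the other WT libraries lay within the R272K range. Over all libraries the log2 fold change was 0.092 (SE 0.0801, 95% interval -0.081 to 0.26, adjusted p = 0.646). Without WT replicate 1 it was -0.0034, with a 95% interval of -0.093 to 0.086, and without WT replicate 3 it was 0.15.

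TJP3 (ENSG00000105289, chromosome 19, 3708362 to 3750813, plus strand), the gene of ZO-3, a zonula occludens protein found mainly in epithelia, was the least abundant, with 100 counts in the R272K libraries together and 83 in the WT libraries. Its level was 1.90, 1.93 and 2.74 CPM in the R272K libraries, against 1.65, 2.096 and 1.51 CPM in the WT libraries, with overlap. Its log2 fold change of 0.33 (SE 0.258, 95% interval -0.23 to 0.88, adjusted p = 0.605) was the largest point estimate of the 9 and had the second widest interval. Without R272K replicate 3 it was 0.13.

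**Figure D3:**
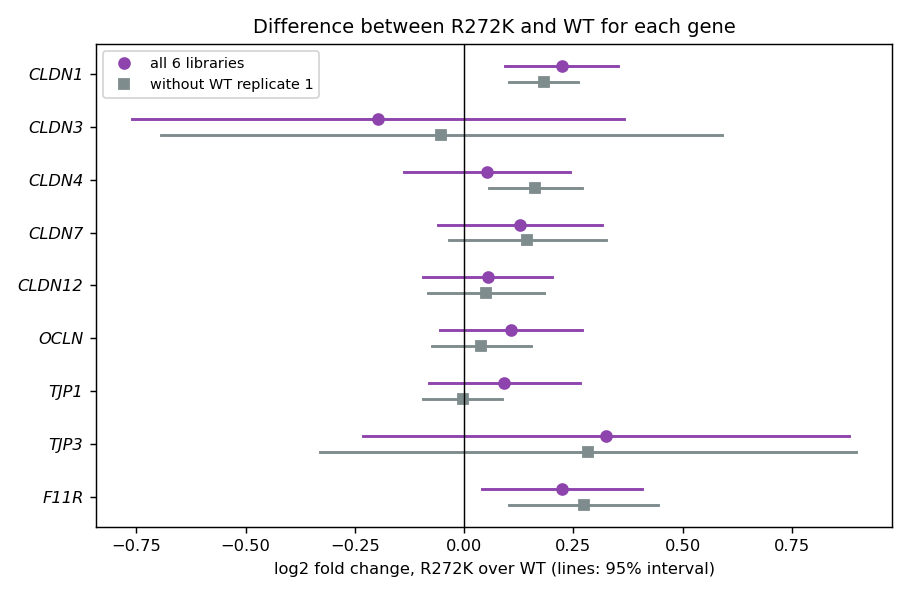
Log2 fold change of each gene, R272K over WT, with its 95% interval, from all 6 libraries (circles) and without WT replicate 1 (squares). The intervals of CLDN1 and F11R lie above 0 in both fits, that of CLDN4 lies above 0 without WT replicate 1, and TJP1 moves to -0.0034.

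How far WT replicate 1 lay from the other WT libraries varied among the members, and in part along gene length. Over all tested genes the log2 ratio of WT replicate 1 to the mean of the other WT libraries had a median of 0.19 in the shortest of 10 equal length groups and -0.24 in the longest. The 2 longest members were the most reduced in that library, TJP1 at -0.30 and OCLN at -0.21. CLDN3, the shortest, was at 0.36, with 41 counts against 25 and 29 in the other WT libraries. CLDN7, the next shortest, was at 0.051, against a median of 0.14 for the group of genes nearest its length. TJP3 was at -0.098, against 0.063, and CLDN12 at -0.011, against 0.0068. CLDN4 and F11R, both longer than the median gene, departed from the trend, at 0.31 and 0.14. CLDN1 was at -0.13, against a median of 0.063 for the group of genes nearest its length. Whether length accounts for the group differences of single members was not tested beyond the fit with the length trend removed, in which TJP1 stood at 0.04, OCLN at 0.07 and CLDN7 at 0.18.

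**Figure D4:**
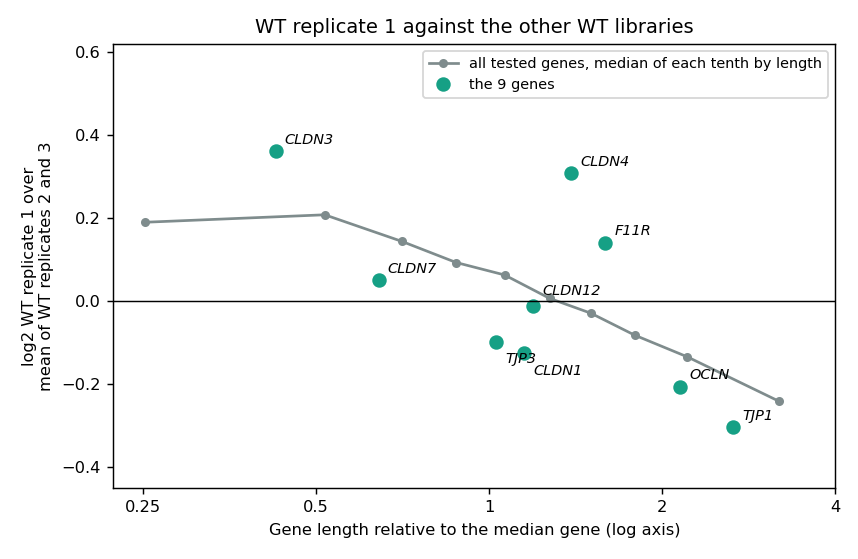
Log2 ratio of WT replicate 1 to the mean of WT replicates 2 and 3 (vertical) against gene length relative to the median gene (log axis), for the 9 genes and as medians over 10 equal length groups of all tested genes. The medians run from 0.19 in the shortest group to -0.24 in the longest, with TJP1 and OCLN below them and CLDN4 at 0.31 above them.

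A match to a motif is a stretch of letters, and no protein binding was measured here. Beside the promoter windows printed above, the members with E-boxes in a window (OCLN, CLDN3, TJP1, CLDN7 and TJP3) had log2 fold changes of -0.20 to 0.33, and those without (CLDN1, CLDN4 and CLDN12) had 0.05 to 0.22, none of them called.

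In the wider junction pathway no tested gene was called. Of 72 listed genes beside the 9, 51 passed the filter, with 0 calls by edgeR, by DESeq2 and by limma-voom. An unadjusted p under 0.05 was given by edgeR to 13, 9 higher and 4 lower with R272K SMAD4, against 7.18% and 7.09% of all genes. The 51 had a median log2 fold change of 0.065.

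Among cytoplasmic plaque scaffolds, 13 besides TJP1 and TJP3 were tested, 0 were called, and 7 stood wholly higher in the R272K libraries and 1 wholly lower, beside 10.9% and 10.4% of all genes. PATJ, a scaffold of the apical Crumbs complex, had 34.7, 34.7 and 36.3 CPM in the R272K libraries, against 25.03, 29.7 and 31.2 CPM in the WT libraries (log2 fold change 0.30, adjusted p = 0.145). Cingulin (CGN), which links ZO-1 to myosin, had 25.3, 25.95 and 25.3 CPM with R272K, against 21.3, 20.7 and 21.95 CPM with WT SMAD4 (0.26, adjusted p = 0.16). The values of AMOT, an angiomotin that binds PATJ (0.58, adjusted p = 0.156), and of afadin, AFDN (0.17, adjusted p = 0.283), also did not overlap between groups. AMOT was called in the fit with no filter (adjusted p = 0.016). Without WT replicate 1, the lowest library for both, AMOT was at 0.38 (adjusted p = 0.155) and AFDN at 0.10 (adjusted p = 0.135).

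Of the 7 tested claudins that are not members, 0 were called, 5 had a negative log2 fold change, and their median was -0.23. CLDN9 had 18 counts in the R272K libraries together and 46 in the WT libraries (log2 fold change -1.28, SE 0.439, adjusted p = 0.206). CLDN23 averaged 6.40 CPM with R272K and 7.48 CPM with WT SMAD4 (-0.23, adjusted p = 0.503). CLDN20 had 26 to 27 counts in the R272K libraries and 31 in WT replicates 2 and 3, but 9 in WT replicate 1.

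Of the other immunoglobulin-like proteins, JAM3, which pairs with JAM2 between cells, was at 0.21 (adjusted p = 0.302), the viral receptor gene CXADR at 0.11 (adjusted p = 0.589), and ESAM, known mainly from endothelium, at -0.24 (adjusted p = 0.31). LSR and MARVELD2, which encode proteins of contacts between 3 cells, were both at 0.08 (adjusted p = 0.676 and 0.763). Omitting WT replicate 1 gave 0.12 for JAM3, -0.15 for ESAM, 0.14 for LSR and 0.02 for MARVELD2. EPCAM, the partner of CLDN7, had 4.73, 5.19 and 4.43 CPM in the R272K libraries, against 3.54, 4.33 and 3.08 CPM in the WT libraries (0.39, adjusted p = 0.338), with no overlap.

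Polarity genes gave 0 calls and 0 unadjusted p under 0.05 among 10 tested. The 4 with the smallest p were the kinase genes PRKCI (0.06, adjusted p = 0.767) and PRKCZ (0.08, adjusted p = 0.809), PARD6G (0.10, adjusted p = 0.783) and PALS1 (0.06, adjusted p = 0.789). Omission of WT replicate 1 put PRKCI at -0.015, PARD6G at -0.020, PALS1 at -0.031 and PRKCZ at 0.14. Of 14 junction signalling genes 0 were called. Values stood wholly higher in the R272K libraries for 3 and wholly lower for 2, against 10.9% and 10.4% of all genes. ARHGEF18, an activator of RhoA at junctions, had 118.2, 123.1 and 122.4 CPM in the R272K libraries, against 132.4, 150.1 and 143.0 CPM in the WT libraries (-0.23, adjusted p = 0.133), and ARHGEF2, which cingulin holds inactive, was also lower without overlap (-0.16, adjusted p = 0.283). MICALL2 (0.22, adjusted p = 0.206), which takes part in delivery of occludin to the membrane, and TIAM1 (0.24, adjusted p = 0.207), an activator of Rac, were higher without overlap. Without WT replicate 1, ARHGEF18 (-0.27, adjusted p = 0.000222) and MICALL2 (0.25, adjusted p = 0.0177) were called, whereas TIAM1 was at 0.15 (adjusted p = 0.168).

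Among regulators, GRHL3, a Grainyhead transcription factor of epithelial barrier genes, was higher with R272K SMAD4. It had 36.7, 37.5 and 41.3 CPM in the R272K libraries, against 27.1, 28.5 and 28.4 CPM in the WT libraries, and the groups did not overlap. GRHL3 had a log2 fold change of 0.46 (SE 0.079, edgeR adjusted p = 0.0116). The call was lost without R272K replicate 1 (adjusted p = 0.0545), 2 (0.0735) or 3 (0.114) or WT replicate 2 (0.0551), and on log2 TPM (0.0532), with log2 fold changes of 0.41 to 0.50 in the fits that omitted 1 library. Of 5 tested activators of epithelial genes 1 was called higher and 0 lower, against 0.685% and 0.528% of all genes. All 5 had a positive log2 fold change. An unadjusted p under 0.05 was given by edgeR to 3, all higher, against 7.18% of all genes. Values stood wholly higher in the R272K libraries for 3, against 10.9% of all genes. ELF3, an epithelial ETS factor, had 42.8, 49.2 and 45.4 CPM with R272K, against 39.1, 36.3 and 34.1 CPM with WT SMAD4 (0.33, adjusted p = 0.0847). It was called without WT replicate 1 (adjusted p = 0.00108). The splicing factor gene ESRP2 was at 0.28 (adjusted p = 0.283), GRHL1 at 0.26 (adjusted p = 0.564) and KLF5 at 0.19 (adjusted p = 0.463).

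GRHL2 had 3 counts in the R272K libraries together and 7 in the WT libraries, and was not tested. Of 5 repressors, 3 were tested and 0 were called. SNAI1 stood at 5.97, 6.79 and 7.17 CPM in the R272K libraries, against 8.44, 7.44 and 6.81 CPM in the WT libraries (-0.19, adjusted p = 0.573). ZEB1 stood at 54.6, 49.2 and 50.8 CPM with R272K, against 46.0, 59.2 and 59.8 CPM with WT SMAD4 (-0.09, adjusted p = 0.719). ZEB2 was at -0.15 (adjusted p = 0.726). Without WT replicate 1, the lowest for ZEB1, ZEB1 was called lower (-0.21, adjusted p = 0.048), SNAI1 was at -0.10 and ZEB2 at -0.31. SNAI2 and TWIST1 did not pass the filter, with at most 11 counts in a group.

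**Figure D5:**
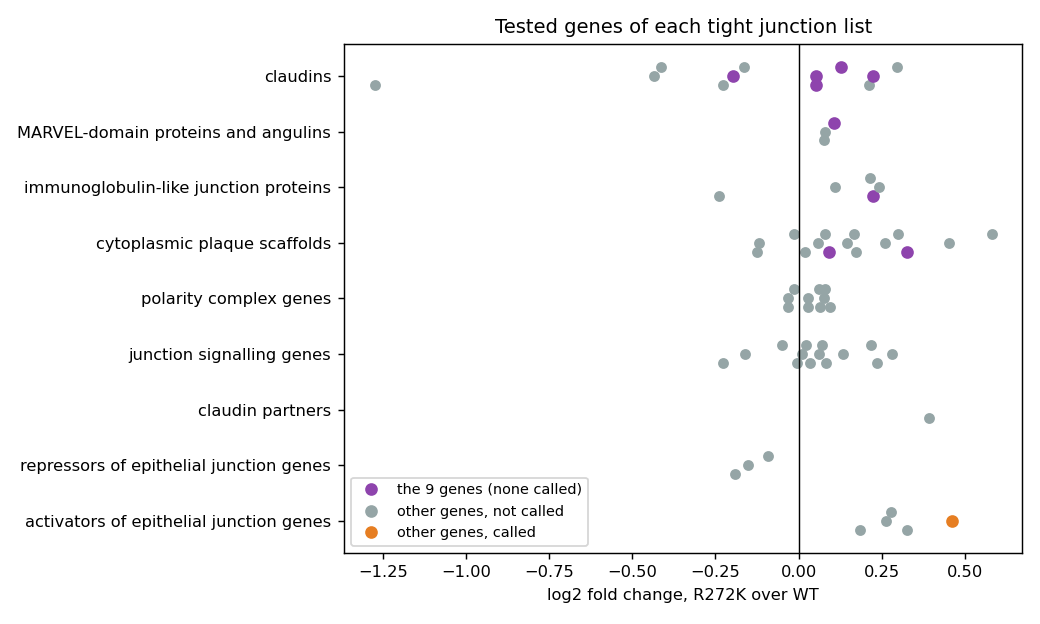
Log2 fold change, R272K over WT, of each tested gene of the tight junction and regulator lists, 1 row per list, with the 9 genes in purple. GRHL3, at 0.46, is the gene called, and the purple points lie between -0.20 and 0.33.

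The 9 genes did not share 1 profile over the libraries. Their mean standardized log2 CPM profile was positive in the 3 R272K libraries and negative in the 3 WT libraries. CLDN1 lay nearest to it, with a root-mean-square difference of 0.415 standard deviations, then F11R at 0.59. CLDN3 (1.6) and CLDN4 (1.17) lay farthest. Over the 6 libraries the other genes with a mean of at least 1 CPM and the most similar profiles were ABTB2 (0.0825), ENSG00000289997 (0.101), PRKD1 (0.123), PLCG1 (0.155) and ICOSLG (0.16). With 6 libraries and a profile that follows the groups, genes that are cleanly higher in the R272K libraries come near it. ABTB2, for one, had 109.5, 114.5 and 111.6 CPM in the R272K libraries, against 99.3, 102.3 and 100.5 CPM in the WT libraries (log2 fold change 0.15, adjusted p = 0.278).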

How the data were processed

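Polyadenylated RNA was sequenced from 3 R272K and 3 WT libraries. Unnormalized counts and TPM, each listed by symbol, are the values the authors deposited. The submitters' processing notes name HTSeq 0.10.0, HISAT2 2.1.0, fastp 0.23.0, SAMtools and GRCh38, while no source used here gives settings, strand or annotation release. Without knowledge of strand, reads of overlapping genes cannot be told apart. Both tables held 62710 lines for 60835 symbols, and repeats of a symbol were dropped. TPM in the deposited table were proportional to counts over length and summed to 1000000 over distinct symbols.

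Low counts were filtered with filterByExpr (minimum count 10, minimum total 15). After TMM scaling, group was tested as the sole term over all 6 libraries with the robust quasi-likelihood F test of edgeR, with Benjamini-Hochberg adjustment over 15911 genes and a threshold of 0.05. The SE is the log2 fold change divided by the square root of F, and 95% intervals use the test's degrees of freedom. Profiles and the comparison of WT replicate 1 used log2 CPM with a prior count of 2. The software was DESeq2 1.42.0, edgeR 4.0.16, limma 3.58.1, matplotlib 3.10.9, pandas 2.3.3, Python 3.11.15, R 4.3.3 and scipy 1.17.1, and the edgeR step was tested on simulated data.

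The genes and lists were chosen with earlier results of these data known. Named genes were the 9, SMAD4, called genes and up to 4 of smallest p in each list, and the 5 most similar profiles; values of CLDN20, GRHL1, GRHL2, SNAI2 and TWIST1 were added after being seen. Replicates of a group differed beyond counting noise, with chi-square over its degrees of freedom at 1.83 or more. The ratio was 11.3 and 15.6 for WT replicate 1 against WT replicates 2 and 3, and 1.83 to 2.93 for the other pairs. Such differences do not show that replicates were separate cultures, and each library was counted.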

Additional observations from a re-analysis of the deposited data

How the results depend on the processing

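The alternatives were 3 other scalings, 2 other filters, DESeq2, limma-voom, limma on log2(TPM + 1) and log2(TPM + 0.1), the replicate number as a block, removal of each library's length trend, each library left out, and, chosen after seeing the data, removal of the length trend without WT replicate 1. The number of the 9 genes called was 1 with the length trend removed, 2 in the fit that also lacked WT replicate 1, 0 to 2 when 1 library was left out, and 0 otherwise. For the other tight junction genes it was 1 with no filter, 1 with the length trend removed, 3 in the fit chosen afterwards and 0 to 2 with 1 library left out. Over all genes, 193 were called, against 474 with no filter, 104 and 101 on TPM with a pseudocount of 1 and 0.1, 619 with the length trend removed, 934 in the fit chosen afterwards, and 55 to 875 with 1 library left out.

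Directions turned for CLDN4 (-0.031 to 0.16 with 1 library left out) and TJP1 (-0.0034 to 0.15, and -0.0013 in the fit chosen afterwards). They also turned for PRKCI (-0.015 to 0.12, and -0.016), PARD6G (-0.020 to 0.15, and -0.021) and PALS1 (-0.031 to 0.12, and -0.033). The cause was not tested. Deviations of same-numbered libraries had r of -0.065 to -0.0072, and those of differently numbered libraries -0.060 to 0.073. With 3 libraries per group this cannot show whether the numbers pair them, and the labels do not say. With the replicate block 262 genes and 0 of the 9 were called, CLDN1 standing at 0.22 (adjusted p = 0.129). CLDN3 and TJP3, with 79 to 100 counts per group, were limited by depth.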
